A study of Mus musculus with 6 samples.

Results

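Lipid droplets store triacylglycerol (TAG) inside cells, and the 10 genes described here encode proteins that coat them, enlarge them or guard their contents. They were chosen by symbol, by a rule that uses no measured value but was set with earlier results of these data known: the perilipins Plin2, Plin3, Plin4 and Plin5, the CIDE genes Cidea, Cideb and Cidec, the fat storage-inducing transmembrane genes Fitm1 and Fitm2, and G0s2. All 10 were among the 54446 genes listed in the liver count tables and all 10 were among the 16734 that had enough reads to be tested. Cidea passed that filter only through the wild-type libraries.

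RNA was sequenced from the liver of 3 male wild-type (WT) mice and 3 male Fmo5-/- mice, a knockout of the gene for flavin-containing monooxygenase 5 and a lean line, generated on the C57BL/6J background that the WT mice also have. All were 32 weeks old, ate standard chow with free access to food, lived in adjacent cages and were sampled in the morning. The comparison asks how the absence of FMO5 goes with the liver transcriptome. Each library held 44886286 to 52338675 counts on genes. No library stood apart by its mean distance to the others of its group, which was 0.410 to 0.453 in log2 units. On the first axis of a multidimensional scaling plot the Fmo5-/- mice were spread from 0.36 (mouse 3) to 1.315 (mouse 2). The WT mice lay between -0.917 and -0.686 on it. Fmo5 itself averaged 35817 ± 4978 normalized counts (SD, n = 3) in WT against 1122 ± 63.7 (SD, n = 3) in Fmo5-/- mice. The 8 hepatocyte markers summed to 111868 to 143780 CPM (counts scaled to library size) in WT and 114557 to 140874 in Fmo5-/- libraries.

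Perilipins sit on the droplet surface and control how lipases reach the stored TAG. CIDE proteins gather where droplets touch and pass lipid from the smaller to the larger one. FIT proteins lie in the endoplasmic reticulum (ER), where TAG is made and from which droplets bud. G0S2 binds adipose triglyceride lipase (ATGL, encoded by Pnpla2), the enzyme that opens TAG breakdown, and inhibits it. In liver PLIN2 is the perilipin best known for accompanying stored fat, and CIDEA and CIDEC are known as genes of adipocytes that appear in fatty liver.

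Of the 10 genes, 3 fell in Fmo5-/- liver at an adjusted p under 0.05 (edgeR's quasi-likelihood test with Benjamini-Hochberg adjustment over all tested genes), namely Cidea, Cidec and Fitm1, and none rose. Among all tested genes 0.693% fell and 0.675% rose by the same rule. In 9 of the 10, all but Plin3, every Fmo5-/- mouse lay below every WT mouse, as was so for 13.5% of tested genes. Cideb is among the 9 only by reads in the 352 of its 1488 exon bases that it shares with no other gene. With reads of 1 strand, which add its shared exons, its log2 fold change was 0.012 (edgeR adjusted p = 0.955). The median log2 fold change (Fmo5-/- over WT) was -0.68 over the 10 genes and 0.0058 over all tested genes. Cidea could be tested only because its WT level is high, and of the other 9 genes 2 fell, with a median of -0.50.

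How many of the 10 genes passed depended on the test. DESeq2's Wald test called 9 of 10 lower, again all but Plin3 and with the same limit for Cideb, where it called 4.2% of tested genes lower. Here and below, shares given for DESeq2 are of the 15634 genes to which it gave an adjusted p. With edgeR 9 were lower at an unadjusted p under 0.05, as were 10.2% of tested genes, and 5 at an adjusted p under 0.1, where 3.36% of tested genes were lower. For a single gene, an exact permutation test of 3 against 3 mice cannot give a two-sided p below 0.1.

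**Figure D1:**
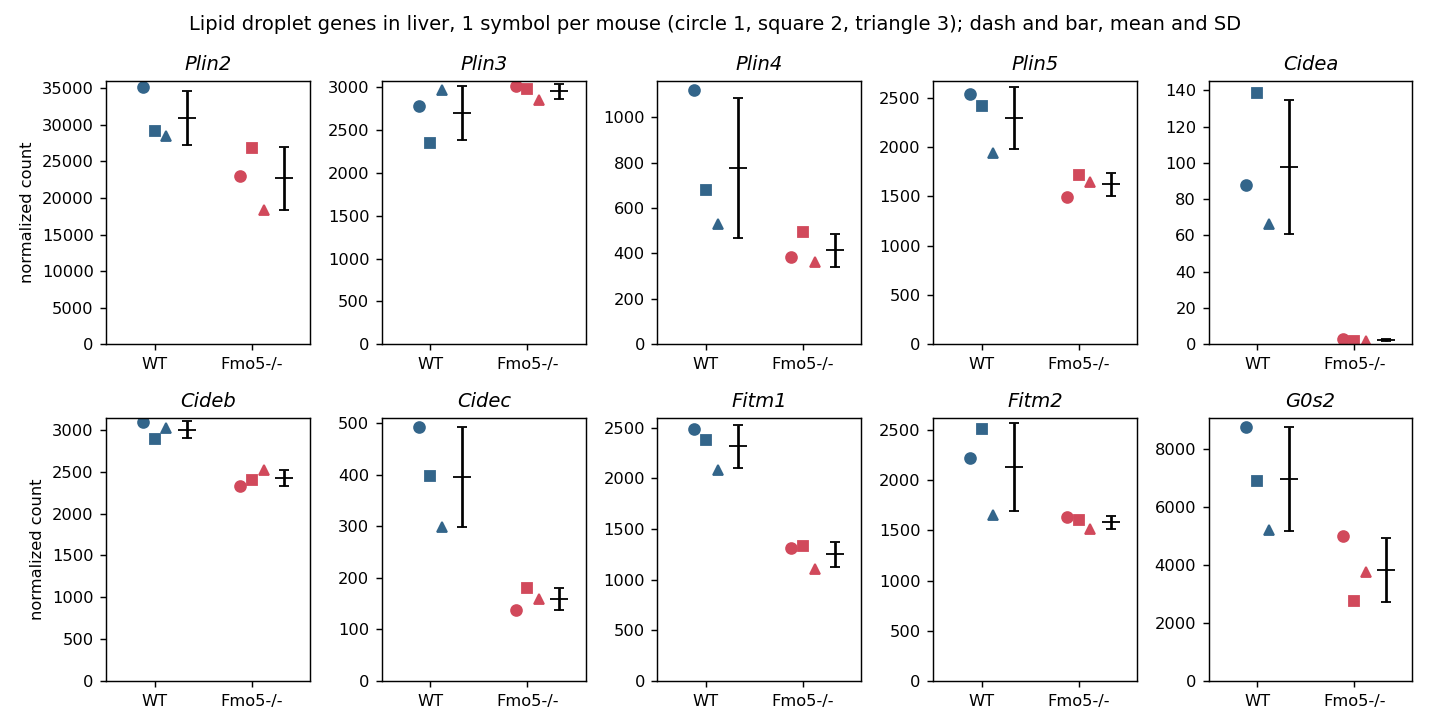
Normalized counts of the 10 droplet genes in each liver library (vertical axes, all starting at 0), with 1 symbol per mouse and the mean and SD beside each genotype (WT blue, Fmo5-/- red). The genotypes do not overlap in 9 panels, and Cidea lies near 0 in the 3 Fmo5-/- mice.

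Among the coat genes, Plin2 encodes the most abundant perilipin of hepatocytes (GRCm38, chr4:86648386-86670060, minus strand). Its normalized counts, raw counts scaled to a common library size, were 35142, 29128 and 28528 in the WT mice and 22945, 26797 and 18283 in the Fmo5-/- mice. The groups did not overlap, although the highest Fmo5-/- mouse came within 1730 normalized counts of the lowest WT mouse. The log2 fold change was -0.45 ± 0.15 (SE, edgeR adjusted p = 0.129, DESeq2 adjusted p = 0.0282), and its 95% interval ran from -0.78 to -0.12.

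Plin5 (chr17:56111601-56117596, minus strand) encodes the perilipin that ties droplets to mitochondria in tissues that burn fat. WT mice had 2543, 2417 and 1946 normalized counts and Fmo5-/- mice 1499, 1723 and 1647. All 3 Fmo5-/- mice were below the lowest WT mouse, for a log2 fold change of -0.50 ± 0.11 (SE, edgeR adjusted p = 0.0588, DESeq2 adjusted p = 0.0035). Of the 6 fits that left out 1 library, only that without WT mouse 3 passed (edgeR adjusted p = 0.0368), and the others gave 0.0675 to 0.184.

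Plin4 (chr17:56100591-56109803, minus strand), whose protein coats droplets through a long repeat, is the neighbour of Plin5, with 1797 bases between them, and 17 of its exon bases are also exon of Hdgfl2 on the other strand. It showed 1121, 681 and 529 normalized counts in WT and 383, 496 and 362 in Fmo5-/- mice. WT mouse 1 stood well above the other WT mice, which in turn were above all Fmo5-/- mice. The log2 fold change was -0.91 ± 0.28 (SE, edgeR adjusted p = 0.136, DESeq2 adjusted p = 0.0039) and -0.54 without WT mouse 1.

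Plin3 (chr17:56277476-56292873, minus strand) encodes a perilipin that moves between cytosol and early droplets. Its normalized counts were 2784, 2351 and 2970.2 in WT and 3020.3, 2984 and 2854 in Fmo5-/- mice. The ranges overlapped, and the log2 fold change of 0.13 ± 0.096 (SE, edgeR adjusted p = 0.483) had a 95% interval of -0.09 to 0.34. Plin3 was the only one of the 10 genes with a higher mean in Fmo5-/- mice when reads of both strands were counted together.

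The mix of perilipin transcripts can be given per length of exon. Plin2 made up 81.8 ± 0.47% (SD, n = 3) of the PLIN2 to PLIN5 total in WT and 79.6 ± 2.80% in Fmo5-/- mice. The share of Plin3 was 6.05, 6.09 and 7.90% in WT and 9.83, 8.45 and 11.1% in Fmo5-/- mice, ranges that did not overlap. Because these are shares of a total that Plin2 dominates, a rise in the share of Plin3 is not a rise in its level. The adipocyte perilipin Plin1 was close to absent, with 43, 7 and 0 reads in WT and 5, 3 and 2 in Fmo5-/- libraries.

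Sequences upstream of the start of Plin2 and Plin5 are shown because both hold AGGTCA, the short site that nuclear receptors such as PPARs read in pairs, which is the motif in capitals (TGACCT is the same site read on the other strand). They come from RefSeq (GRCm38.p6), 5′ to 3′ on the strand of the gene, for Plin2 chr4:86670061-86670309 and for Plin5 chr17:56117597-56117798.
Plin2: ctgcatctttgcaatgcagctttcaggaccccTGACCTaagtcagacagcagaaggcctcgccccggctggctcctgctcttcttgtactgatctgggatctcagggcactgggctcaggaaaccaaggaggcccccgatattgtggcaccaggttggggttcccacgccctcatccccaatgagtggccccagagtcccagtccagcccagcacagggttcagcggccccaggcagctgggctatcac
Plin5: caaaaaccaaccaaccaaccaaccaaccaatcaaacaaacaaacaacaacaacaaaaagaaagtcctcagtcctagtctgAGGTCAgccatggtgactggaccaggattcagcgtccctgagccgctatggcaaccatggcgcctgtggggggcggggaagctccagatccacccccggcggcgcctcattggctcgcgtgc

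RefSeq gave 11 windows, each from 250 bases before to 50 after a start, for 9 of the 10 genes. AGGTCA, searched on both strands, was in 3 of the 11 windows (1 of Plin2 and both of Plin5) and in 16.3% of all 32851 windows of that length. The paired form, DR1 (a direct repeat of AGGTCA with 1 base between the repeats), was in none of the 11 and in 0.0396% of all windows. The E-box CACGTG was in 1 of 11, that of Plin2, and in 7.15% of all, and TTGCGCAA was in none of the 11 and in 0.183% of all. A match is only a run of letters, and no binding was measured here.

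Cidea, on chromosome 18 (chr18:67343604-67367785, plus strand), showed the largest fold change of the 10 genes. Its raw reads numbered 83, 124 and 65 in the WT libraries and 3, 2 and 2 in the Fmo5-/- libraries, which is 87.9, 138 and 66.5 against 2.79, 1.84 and 1.96 normalized counts. The lowest WT library thus held many times the reads of the highest Fmo5-/- library. Over the 3 libraries of each genotype 272 reads stood against 7, a depth-scaled ratio of 43.9 with a 95% interval of 21.0 to 110 that covers counting error only. The fitted log2 fold change was -5.39 ± 0.44 (SE, edgeR adjusted p = 8.49e-04). Since only the WT libraries carried Cidea past the filter, a gene admitted in this way had to differ between the groups, and the reads themselves are the measurement to go by.

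Cidec (chr6:113424634-113435760, minus strand), whose protein builds the single large droplet of white adipocytes, fell as well. Normalized counts were 492, 397 and 299 in WT and 138, 181 and 159 in Fmo5-/- mice. Every Fmo5-/- mouse was below every WT mouse by at least 118 normalized counts. The log2 fold change was -1.31 ± 0.20 (SE, edgeR adjusted p = 0.0228, DESeq2 adjusted p = 7.86e-08). The edgeR call was lost without Fmo5-/- mouse 1 (adjusted p = 0.101), WT mouse 1 (0.0696) or WT mouse 2 (0.0557), while the log2 fold change stayed between -1.48 and -1.12 over the 6 omissions.

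Cideb (chr14:55754050-55758458, minus strand) encodes the CIDE protein usual in hepatocytes, which also takes part in loading very-low-density lipoprotein. It had 3093, 2890.1 and 3029 normalized counts in WT and 2336, 2408 and 2528 in Fmo5-/- mice. The groups were tight and apart, with a log2 fold change of -0.31 ± 0.074 (SE, edgeR adjusted p = 0.0709, DESeq2 adjusted p = 0.0158).

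These Cideb reads came from a small part of the gene. Of its 1488 exon bases, 1136 (76.3%) are also exon of Nop9, a gene on the opposite strand that encodes a ribosome assembly factor, and reads that fall on 2 genes were not counted when both strands were read as one. The libraries carried no strand information, since 49.87 to 50.11% of reads fell on the first strand. Reads in the exons that Cideb shares numbered 12087 ± 513 normalized (SD, n = 3) in WT and 12406 ± 529 in Fmo5-/- mice, against 3004 ± 104 and 2424 ± 96.7 counted on Cideb alone. With reads of 1 strand only, which adds the shared exons, the log2 fold change of Cideb was 0.012 (edgeR adjusted p = 0.955). Nop9, from its own unshared exons, had 981 ± 61.0 normalized counts in WT and 1004 ± 50.01 in Fmo5-/- mice. The lower Cideb value therefore holds for the 352 unshared bases, and which gene the shared reads came from cannot be told apart.

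**Figure D2:**
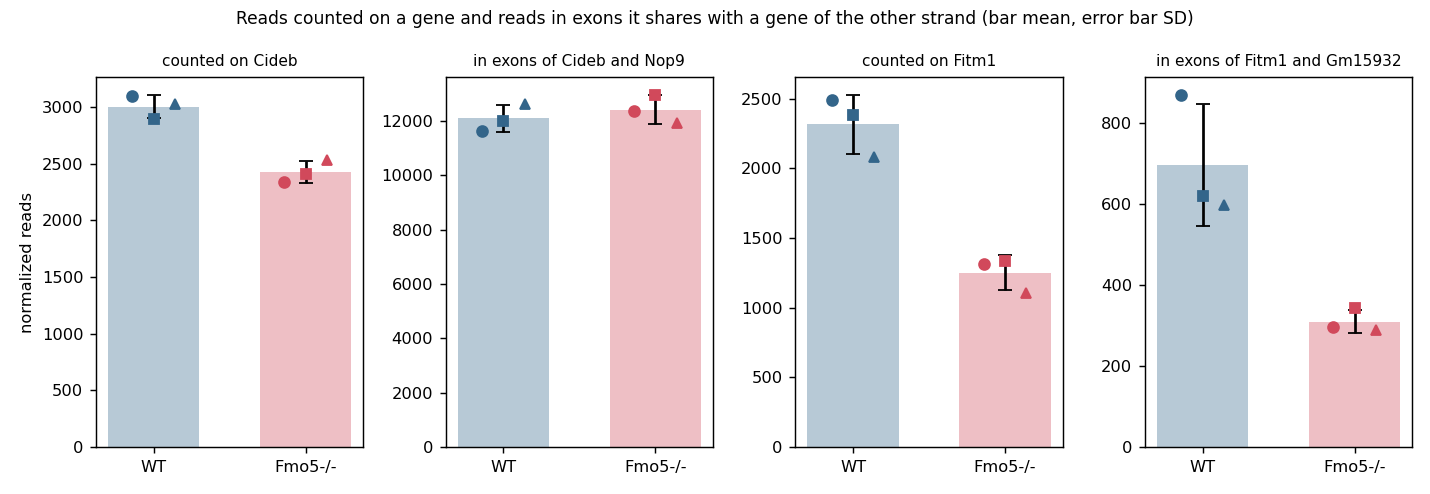
Normalized reads counted on Cideb and on Fitm1 and normalized reads in the exons each shares with a gene of the other strand (vertical axes from 0; bars, mean of 3 mice; error bars, SD; symbols, mice; WT blue, Fmo5-/- red). Reads in exons of Cideb and Nop9 are alike in level in both genotypes, 12087 against 12406, while reads in exons of Fitm1 and Gm15932 are 696 in WT and 310 in Fmo5-/- mice.

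Fitm1 (chr14:55575617-55576954, plus strand), the FIT gene best known from muscle, fell in Fmo5-/- liver. Its normalized counts of 2487, 2382 and 2080 in WT stood against 1314, 1331 and 1103 in Fmo5-/- mice. The gap between the groups, 749 normalized counts, was wider than the range within either. The log2 fold change was -0.89 ± 0.10 (SE, edgeR adjusted p = 0.0081), a level 46.0% lower, and the call held whichever of the 6 libraries was left out, at adjusted p of 0.0061 to 0.0322. An antisense gene, Gm15932, shares 109 of the 971 exon bases of Fitm1, and the reads in the shared part were 696 ± 151 normalized (SD, n = 3) in WT and 310 ± 28.5 in Fmo5-/- mice. Skeletal muscle RNA was near 0, since the 10 muscle markers summed to 0.0868 to 0.209 CPM in WT and 0.241 to 0.376 in Fmo5-/- libraries.

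Fitm2 (chr2:163466379-163472629, minus strand) is the widely expressed FIT gene. WT mice had 2226, 2515 and 1652 normalized counts and Fmo5-/- mice 1630.3, 1608 and 1509.9. An antisense gene, 2310001K24Rik, shares 227 of its 3967 exon bases. The lowest WT mouse was only 21.9 normalized counts above the highest Fmo5-/- mouse. The log2 fold change was -0.43 ± 0.14 (SE, edgeR adjusted p = 0.129, DESeq2 adjusted p = 0.0489). Over the 6 omissions it ran from -0.58 without WT mouse 3, the only one that passed (edgeR adjusted p = 0.0368), to -0.29 without WT mouse 2 (edgeR adjusted p = 0.279). Per length of exon, Fitm1 made up 81.7 ± 2.14% (SD, n = 3) of the pair in WT and 76.3 ± 1.20% in Fmo5-/- mice.

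Stretches upstream of the start of Cidec and Fitm1, the called genes for which RefSeq windows were given, are printed so that the regions can be compared. Neither held any of the motifs searched. The stretches are chr6:113435761-113436010 for Cidec and chr14:55575424-55575616 for Fitm1 (RefSeq, GRCm38.p6, 5′ to 3′ on the gene's strand, with no capitals).
Cidec: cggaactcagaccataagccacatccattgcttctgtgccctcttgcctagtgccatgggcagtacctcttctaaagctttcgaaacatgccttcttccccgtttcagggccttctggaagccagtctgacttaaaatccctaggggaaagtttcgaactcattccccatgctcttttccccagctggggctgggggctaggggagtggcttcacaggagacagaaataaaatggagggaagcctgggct
Fitm1: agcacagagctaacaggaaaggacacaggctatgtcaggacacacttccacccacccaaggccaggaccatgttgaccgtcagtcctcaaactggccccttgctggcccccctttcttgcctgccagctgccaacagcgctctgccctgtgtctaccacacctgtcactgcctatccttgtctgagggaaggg

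G0s2 (chr1:193272161-193273217, minus strand), the inhibitor of ATGL, had 8783, 6904 and 5223 normalized counts in WT and 4991, 2775 and 3745 in Fmo5-/- mice. Both groups were spread widely, and the lowest WT mouse exceeded the highest Fmo5-/- mouse by 232 normalized counts. The log2 fold change was -0.86 ± 0.26 (SE, edgeR adjusted p = 0.133, DESeq2 adjusted p = 0.0020). Its target Pnpla2 had 2378 ± 219 normalized counts (SD, n = 3) in WT and 2605 ± 211 in Fmo5-/- mice (log2 fold change 0.13, edgeR adjusted p = 0.465).

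**Figure D3:**
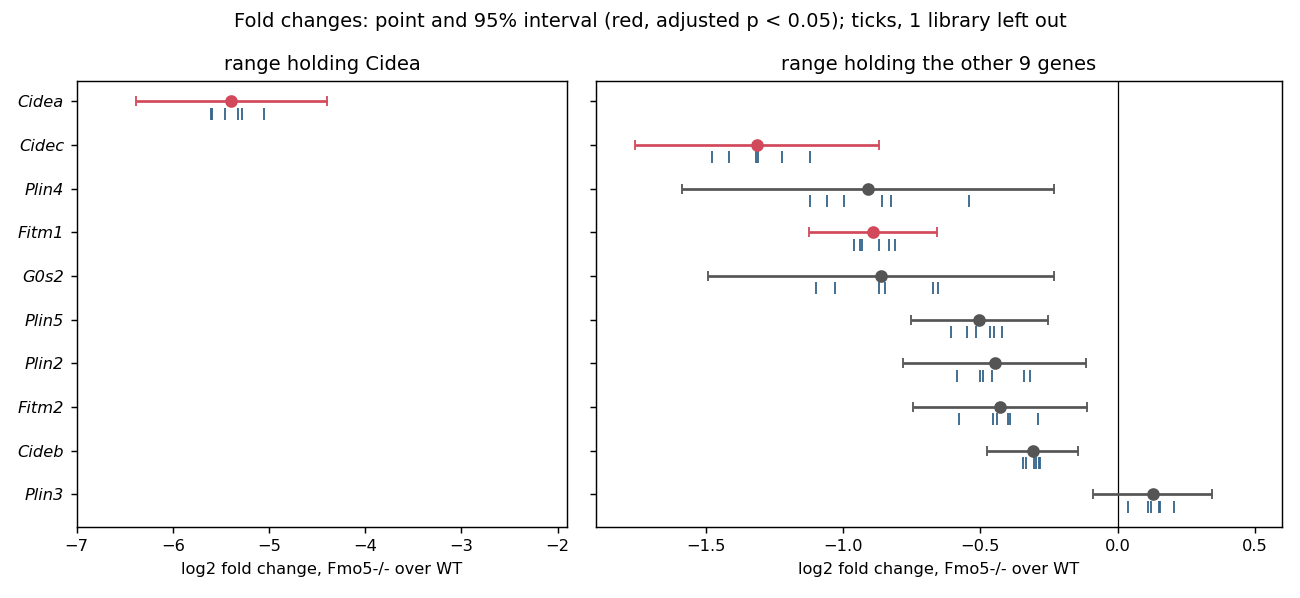
Log2 fold change, Fmo5-/- over WT, of each of the 10 genes (horizontal axes; point and 95% interval, red where the edgeR adjusted p is under 0.05), with blue ticks for the 6 fits that leave out 1 library. Cidea needs an axis range of its own at -5.39, and only the interval of Plin3 includes 0.

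Spread between mice differed among the genes. The coefficient of variation of Plin4 in WT was 39.6%, and 98.3% of 2463 tested genes of similar mean varied less. G0s2 varied by 25.6% in WT and 29.0% in Fmo5-/- mice, more than 96.1% and 97.9% of its 1077 peers. Cideb was steady at 3.46% and 3.99%. WT mouse 1 was the highest WT mouse for 7 of the 10 genes and WT mouse 3 the lowest for 8, so the 10 genes are not 10 separate readings of genotype.

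Compared in RPKM, here library-scaled counts per kilobase of exon, Plin2 led in WT liver at 180 ± 21.3 (SD, n = 3) with G0s2 at 164 ± 41.9, and their ranges overlapped. Fitm1 at 48.9 ± 4.46, Cideb at 41.4 ± 1.43 and Plin5 at 22.6 ± 3.09 followed, each apart from its neighbours. Plin3 (12.7 to 16.1 over the 3 mice) and Fitm2 (8.53 to 13.0) overlapped, as did Cidec at 4.37 ± 1.07 with Plin4 at 2.75 ± 1.09, and Plin4 with Cidea at 1.79 ± 0.68. In Fmo5-/- liver Cideb was at 33.4 ± 1.33 and Fitm1 at 26.4 ± 2.68, and Plin3 (16.0 ± 0.47) and Plin5 (15.9 ± 1.12) overlapped. Cidea was at 0.0404 ± 0.0096. When only exon bases in no other gene were used as length, which suits counts that leave out shared reads, Cideb was at 175 ± 6.05 in WT and 141 ± 5.63 in Fmo5-/- mice, the second and the first of the order by mean. Its range overlapped those of Plin2 and G0s2 in WT and that of Plin2 in Fmo5-/- mice, so these places are not distinguished. On that length Cideb was above Fitm1 in both genotypes (Fitm1 at 55.0 ± 5.02 in WT and 29.7 ± 3.01 in Fmo5-/- mice), so their order was the same in WT and Fmo5-/- liver.

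**Figure D4:**
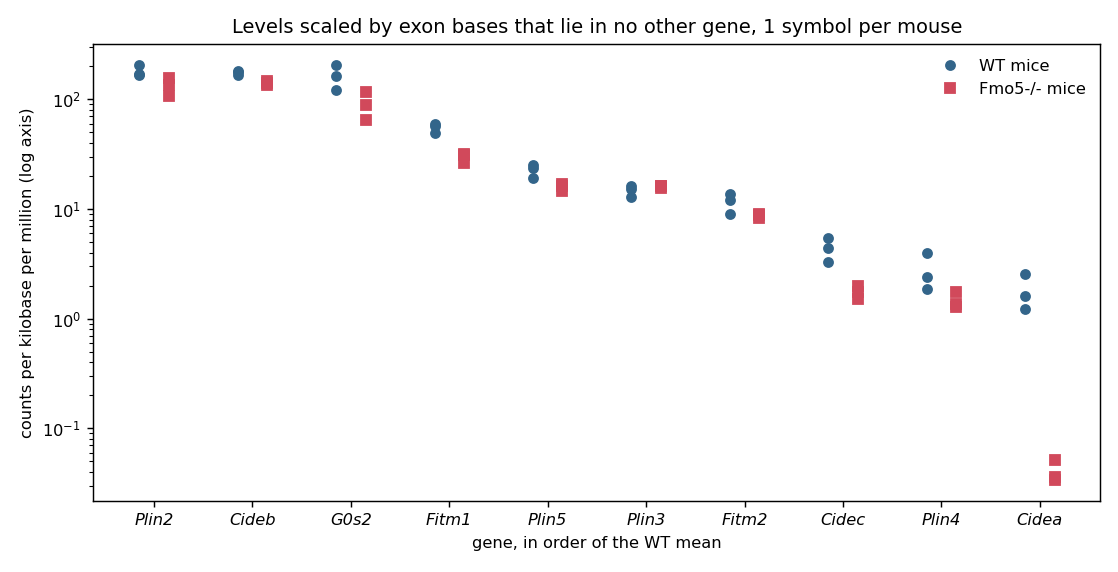
Level in RPKM, library-scaled counts per kilobase of unshared exon (vertical log axis) for the 10 genes in the order of the WT mean, 1 symbol per mouse (blue circles WT, red squares Fmo5-/-). Levels run from 180 for Plin2 to 1.79 for Cidea in WT, and Cidea drops to 0.0404 in Fmo5-/- mice.

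Other gene groups around the droplet were described by the same counts and medians. Of 19 tested genes for other droplet proteins none passed edgeR's test, 5 were lower at an unadjusted p under 0.05 (10.2% of all tested genes were), and DESeq2 called 3 lower, namely Hsd17b13, Rab18 and Ldah, where it called 4.2% of tested genes lower. Their median log2 fold change was -0.17. Of 12 tested genes of TAG synthesis 2 fell and none rose (0.693% and 0.675% of all tested genes did), with a median of -0.30. They were Mogat1, a monoacylglycerol acyltransferase of fatty liver (83.4 ± 27.9 normalized counts in WT and 22.8 ± 5.85 in Fmo5-/- mice, log2 fold change -1.87, edgeR adjusted p = 0.0324), and Lpin2, a phosphatidate phosphatase (log2 fold change -0.63, edgeR adjusted p = 0.0242).

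Of 9 genes of TAG breakdown 2 fell and none rose, against 0.693% and 0.675% of all tested genes, with a median of -0.37. Aadac, a microsomal esterase, went from 25980 ± 1591 to 14983 ± 2227 normalized counts (log2 fold change -0.79, edgeR adjusted p = 0.0239). Mgll, monoacylglycerol lipase, which ends the lipolytic sequence, went from 9749 ± 1245 to 6250 ± 635 (log2 fold change -0.64, edgeR adjusted p = 0.0431). For Abhd5, which activates ATGL, the log2 fold change was -0.28 (edgeR adjusted p = 0.173).

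None of 15 regulator genes passed edgeR's test, and none passed DESeq2's, while 2 were lower at an unadjusted p under 0.05, against 10.2% of all tested genes. All 15 had fold changes below 0, as had 49.2% of tested genes, and the median was -0.076. The largest were Pparg (844 ± 182 against 614 ± 42.1 normalized counts, log2 fold change -0.46, edgeR adjusted p = 0.135) and Ppara (log2 fold change -0.39, edgeR adjusted p = 0.248). Both encode receptors known to drive several of the 10 droplet genes.

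Of 20 PPARA target genes of fasting 3 fell and none rose, beside 0.693% and 0.675% of all tested genes. Their median was -0.42, and all 20 had fold changes below 0, as had 49.2% of tested genes. The 3 were Fgf21, a fasting hormone (log2 fold change -1.89, edgeR adjusted p = 0.0495), and Slc25a20 and Cpt2, which carry long-chain acyl groups into mitochondria (-0.44 and -0.49, edgeR adjusted p = 0.0468 for each). Of 9 tested PPARG target genes of fatty liver, Mogat1, also counted above, fell (1 of 9, beside 0.693% of all tested genes) and Lpl, the lipase that frees fatty acids from plasma lipoproteins, rose (1 of 9, beside 0.675%) from 507 ± 5.43 to 1110.0 ± 312 normalized counts (log2 fold change 1.13, edgeR adjusted p = 0.0431). The median of the 9 was -0.60. Without Fmo5-/- mouse 1 none of the named list calls held, from Mogat1 to Lpl, at edgeR adjusted p of 0.0854 to 0.134. All of these calls were also lost in other omissions. Lpl passed only without Fmo5-/- mouse 2 (edgeR adjusted p = 0.0374) or mouse 3 (0.0012). Mogat1 lost its call without WT mouse 1 (0.0962), WT mouse 2 (0.0514) or Fmo5-/- mouse 2 (0.0810). Mgll lost it without WT mouse 1 (0.125) or WT mouse 2 (0.0971), and Aadac without WT mouse 1 (0.0959) or WT mouse 3 (0.0544). Lpin2 lost it without WT mouse 2 (0.0624). Slc25a20 lost its call whichever library was left out (edgeR adjusted p 0.0544 to 0.133), with log2 fold changes of -0.48 to -0.39. Cpt2 passed only without WT mouse 3 (0.0389), and Fgf21 only without Fmo5-/- mouse 2 (0.0486) or mouse 3 (0.0371).

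**Figure D5:**
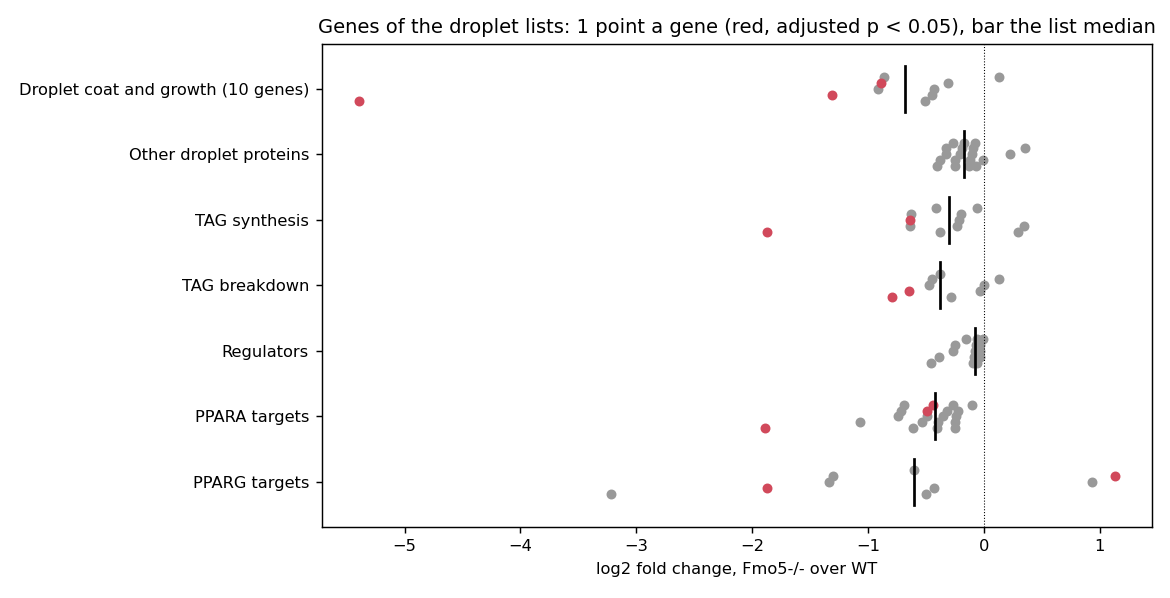
Log2 fold change, Fmo5-/- over WT, of every tested gene of each droplet list (horizontal axis; 1 point a gene, red where the edgeR adjusted p is under 0.05; bar, list median). The median of the 10 coat and growth genes is -0.68, and -0.50 without Cidea, that of PPARG targets -0.60 and that of regulators -0.076, and Lpl is the red point above 0.

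Markers of other cell types were read beside these values, since in whole liver fewer cells of a type and less RNA per cell cannot be told apart. Of the 10 adipocyte markers 5 had enough reads to be tested and the list summed to 52.1 to 75.3 CPM in WT and 48.0 to 86.6 in Fmo5-/- libraries. Most of that sum came from Lpl, which rose as given above, and from Fabp4, Lipe, Pparg and Cfd. Fabp4 had a higher mean in Fmo5-/- mice, 769 ± 550 normalized counts against 402 ± 108 in WT (SD, n = 3). Its groups overlapped (log2 fold change 0.94, edgeR adjusted p = 0.418). Lipe was at 634 ± 23.2 in WT and 622 ± 53.5 in Fmo5-/- mice (log2 fold change -0.028, edgeR adjusted p = 0.895). The markers with too few reads to be tested, Plin1, Adipoq, Retn, Lep and Ucp1, had lower means in Fmo5-/- mice. Plin1 averaged 17.8 ± 24.4 normalized counts (SD, n = 3) in WT and 3.13 ± 1.39 in Fmo5-/- mice. Adipoq had 38, 6 and 1 reads in WT and 4, 8 and 0 in Fmo5-/- libraries. Retn had 20, 7 and 3 against 1, 2 and 1, the only one of these low markers whose groups did not overlap. Lep had 8, 1 and 0 against 1, 0 and 0, and Ucp1 4, 2 and 0 against 0 in all 3. WT mouse 1 thus held the most reads of each of them, and WT mouse 3 had the fewest of the WT mice. Cfd, an adipocyte protease also known from fatty liver, had 900, 496 and 442 reads in WT and 44, 140 and 41 in Fmo5-/- libraries (log2 fold change -3.21, edgeR adjusted p = 0.0633, DESeq2 adjusted p = 3.45e-05). Without WT mouse 1 the log2 fold change was -5.45 for Cidea, -1.12 for Cidec, -0.83 for Fitm1, -0.54 for Plin4 and -0.66 for G0s2, and the median of the 10 genes was -0.48.

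Kupffer cell markers, those of the resident macrophages of liver, were read in the same way. Of these, 1 of 8 passed edgeR's test, as higher, against 0.675% of all tested genes. All 8 were higher at an unadjusted p under 0.05, against 11.6% of all tested genes. The 8 markers summed to 185 to 221 CPM in WT and 289 to 532 in Fmo5-/- libraries. The called marker was Clec4f (log2 fold change 0.70, edgeR adjusted p = 0.0275), whose call did not survive the omission of WT mouse 1 (edgeR adjusted p = 0.0696), WT mouse 2 (0.05004), Fmo5-/- mouse 1 (0.102) or Fmo5-/- mouse 2 (0.0600). Marco was the only one of the 8 in which the groups overlapped, and in the others every Fmo5-/- mouse lay above every WT mouse. The share of all tested genes set apart in this upward direction was not computed, so this separation has no background beside it. DESeq2 called 7 of the 8 higher, where it called 4.73% of tested genes higher. The 8 stellate cell markers summed to 236 to 283 in WT and 241 to 347 in Fmo5-/- libraries, with none past edgeR's or DESeq2's threshold and 1 higher at an unadjusted p under 0.05, against 11.6% of all tested genes. The part of adipocytes, Kupffer cells or stellate cells in the values of the 10 droplet genes was not tested.

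The tested genes whose centred log2 values over the 6 libraries lay nearest to those of each called gene were also found, as a description. For Cidea they were Mme, at a root mean square difference of 0.34, Fmo5 at 0.37 and Dynlt1b at 0.48. Mme, which encodes the peptidase neprilysin, had 3318, 2826 and 2006 normalized counts in WT and 188, 92.7 and 98.2 in Fmo5-/- mice. For Cidec they were Clstn3 at 0.17, Gm13775 at 0.17 and Fbxo40 at 0.18. Clstn3, which encodes calsyntenin 3, had 3517, 2493 and 2262 normalized counts in WT and 1220.4, 1323 and 1003 in Fmo5-/- mice (log2 fold change -1.22, edgeR adjusted p = 0.0277). For Fitm1 they were Gm10284 at 0.068, Cdh18 at 0.076 and Ovol3 at 0.083, all with fewer than 40 normalized counts in each library.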

How the data were processed

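Reads were single, 75 bases long (NextSeq 500, mRNA libraries from total liver RNA). The authors demultiplexed with bcl2fastq, clipped adapters, aligned to mm10 with STAR 2.6.0c and deposited raw counts per gene, for both strands together and for each strand as other whole-read columns. Their series table holds deposited normalized signal, which is those counts divided by a DESeq2 1.22.2 size factor (largest departure 0.00055%), beside mean, log2 fold change, score and p-value columns of the authors' own comparison, which were not used. FastQC is also named in the submitters' processing notes. The annotation release is not given in the sources used here.

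Both-strand counts were tested with edgeR 4.0.16 in R 4.3.3 (limma 3.58.1; filterByExpr, min.count 10; TMM; robust quasi-likelihood, genotype only; Benjamini-Hochberg over 16734 genes, threshold 0.05). The typical biological coefficient of variation was 15%. Normalized counts are counts divided by effective library size, times the mean effective library size. DESeq2 1.42.0 was the alternative test. Scripts were tested on simulated data. Reads in shared exons are the sum of both strand columns minus the both-strand count, scaled likewise. Positions, exon lengths and overlaps are from GENCODE vM21 (GRCm38), where 54409 of 54446 gene IDs matched without version. The printed sequences leave out annotated exons.

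The 10 genes and all lists were chosen with earlier results of these data known. Genes were named by rule: Fmo5, the 10 genes, genes that share exon bases with them, list genes past the threshold and the 3 tested genes nearest to each called gene. Other list genes (Plin1, Pnpla2, Abhd5, Pparg, Ppara, Cfd, Fabp4, Lipe, the DESeq2 calls, and the adipocyte markers with too few reads to be tested) were named after their values were seen. Counts on genes made up 66.2 to 69.2% of listed reads; reads in no gene, several places or unmapped were left out.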

Additional observations from a re-analysis of the deposited data

How the results depend on the processing

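No paired analysis was possible because the labels give the mice no shared replicate numbers. Fitm1 passed in every fit run. The count of the 10 genes called lower (3) was 9 with DESeq2, 7 with no filter beyond 1 count, 5 at an adjusted p under 0.1 and 1 with a mean of 500 or more normalized counts required before the fit, a limit that drops Cidea and Cidec; it ran from 2 to 5 when 1 library was left out, the 5 without WT mouse 3. Their median log2 fold change was -0.41 with the mean of 500 and ran from -0.78 to -0.48 over the omissions. The only direction to turn was that of Cideb, at 0.012 with reads of 1 strand, which add the exons shared with Nop9. Levels of Plin2, Cideb and Fitm1 moved with the length used: 336 for Plin2 and 50.8 for Cideb with the longest transcript, and 175 for Cideb and 55.0 for Fitm1 with unshared exon bases, a length chosen after seeing the data. Coding length was not run because exon unions were available for all 10 genes, and protein identity was not computed.

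With DESeq2, 1396 genes were called (656 lower), with no filter 1989 (896 lower), at an adjusted p under 0.1 1264 (563 lower), and with the mean of 500 53 (23 lower), against 229 (116 lower). Leaving out 1 library gave 31 (without Fmo5-/- mouse 1) to 763 (without Fmo5-/- mouse 3), of which 15 to 157 lower. In the same order of DESeq2, no filter and mean of 500, TAG synthesis had 4, 4 and 0 calls, TAG breakdown 4, 4 and 1, PPARA targets 7, 9 and 0, and PPARG targets 7, 4 and 0. Other droplet proteins had 3 calls with DESeq2, 3 with no filter and 2 at an adjusted p under 0.1, and regulators 2 with no filter. At an adjusted p under 0.1 PPARA targets had 6 calls and PPARG targets 6. With reads of 1 strand PPARA targets had 1. Leaving out 1 library gave 0 to 2 calls for TAG synthesis, TAG breakdown and PPARG targets, and 0 to 1 for PPARA targets and regulators, the 1 regulator without WT mouse 3. Cause was not tested for any of these moves. Depth limits Cidea, at 2 or 3 reads in each Fmo5-/- library.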
